A study of Drosophila melanogaster with 2 samples.

Results

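The Polycomb repressive complex genes described here are 10 genes of Drosophila melanogaster, of 17896 annotated genes on the 6 chromosome arms. They were taken from a fixed list of subunit genes. PRC1 is represented by ph-p, ph-d, Pc, Psc and Sce, PRC2 by E(z), esc and Su(z)12, and PhoRC by pho and Sfmbt. All 10 were found by symbol in the Ensembl annotation. Each gene's window is its annotated body and 5 kb on either side, and a peak was assigned to every gene whose window held its summit, the position of highest signal within a peak. The windows held 16 of the 3571 reproducible peaks of the experiment.

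Binding was measured by chromatin immunoprecipitation and sequencing (ChIP-seq) with an anti-GFP antibody in whole embryos of 0 to 12 h. The flies were of 1 transgenic line that stably expresses the CG2202 protein, which RefSeq lists as uncharacterized, with GFP at its C-terminus. The samples are 2 biological replicates of that line and form 1 group, so there was no second condition to compare and the values below carry no test between conditions. Embryos of all these ages and all their cell types were pooled in each sample, so a peak cannot be placed in a stage or a tissue.

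Polycomb group proteins keep genes such as the Hox genes silent through cell divisions. E(z) is the enzyme of PRC2 that methylates histone H3, esc and Su(z)12 are its partners, the chromodomain of Pc in PRC1 binds that methyl mark, and Sce is the PRC1 subunit that ubiquitylates histone H2A. Psc and the Polyhomeotic proteins, encoded by the neighbouring genes ph-p and ph-d, complete PRC1, and the DNA-binding protein Pho with its partner Sfmbt forms PhoRC, which binds Polycomb response elements. The ph locus and the Psc region are themselves known targets of Polycomb proteins in the fly.

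The peaks come from 4 lists: 1 for each replicate and 1 for the pooled reads, each of 30000 peaks, and a list of 3571 peaks that passed the irreproducible discovery rate (IDR), a measure of agreement between replicates. Signal is the peak caller's own value, and it ranges from 26.4 to 2323 in the pooled list. It is compared only within a list. Rank 1 is the highest signal. The lowest signal in the IDR list was 121. Read depth is unknown, since the lists give no read counts.

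Sequences around summits are shown first because IDR peaks, those near these genes among them, are mostly rich in A and T. They are read from the plus strand of the Release 6 genome sequence, 5′ to 3′, up to 50 bp either side of the summit and cut where an annotated UTR begins. Capitals mark the longest run of A and T alone, or the first of equally long runs, as in the Pc window and at the stronger summit upstream of ph-d. The weaker summit upstream of ph-d is included because it aligns with ph-p.
ph-p, strongest peak, chrX:2137281-2137381: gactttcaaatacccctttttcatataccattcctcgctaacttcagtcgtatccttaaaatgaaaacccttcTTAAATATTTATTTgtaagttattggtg
Pc window, peak at CG11309, chr3L:21304527-21304608: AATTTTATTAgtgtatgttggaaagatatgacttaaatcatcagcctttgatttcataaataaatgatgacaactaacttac
upstream of ph-d, stronger summit, chrX:2124058-2124158: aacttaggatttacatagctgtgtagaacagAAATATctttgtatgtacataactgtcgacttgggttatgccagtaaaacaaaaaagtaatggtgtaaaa
upstream of ph-d, weaker summit, chrX:2124266-2124366: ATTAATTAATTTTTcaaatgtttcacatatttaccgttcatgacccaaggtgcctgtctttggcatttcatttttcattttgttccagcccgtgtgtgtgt
E(z), promoter peak, chr3L:10637977-10638038: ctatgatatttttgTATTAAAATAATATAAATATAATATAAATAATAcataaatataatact

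Peaks near Polycomb genes were unevenly spread. An IDR summit lay in the window of 7 of the 10 genes (ph-p, ph-d, Pc, Psc, E(z), Su(z)12 and Sfmbt), where 36.6% of all genes had one. Longer genes have wider windows, and among the 7431 protein-coding genes no shorter than Sce and no longer than Psc, which bound the members in length, the share was 42.0%. An IDR summit lay within 500 bp of an own transcription start site (TSS) of 5 of the 10 (ph-p, Psc, E(z), Su(z)12 and Sfmbt), where 12.1% of all genes and 16.4% of the genes in that length range had one. The 10 genes were listed with earlier results of these data known, so these counts are a description and were not tested.

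**Figure D1:**
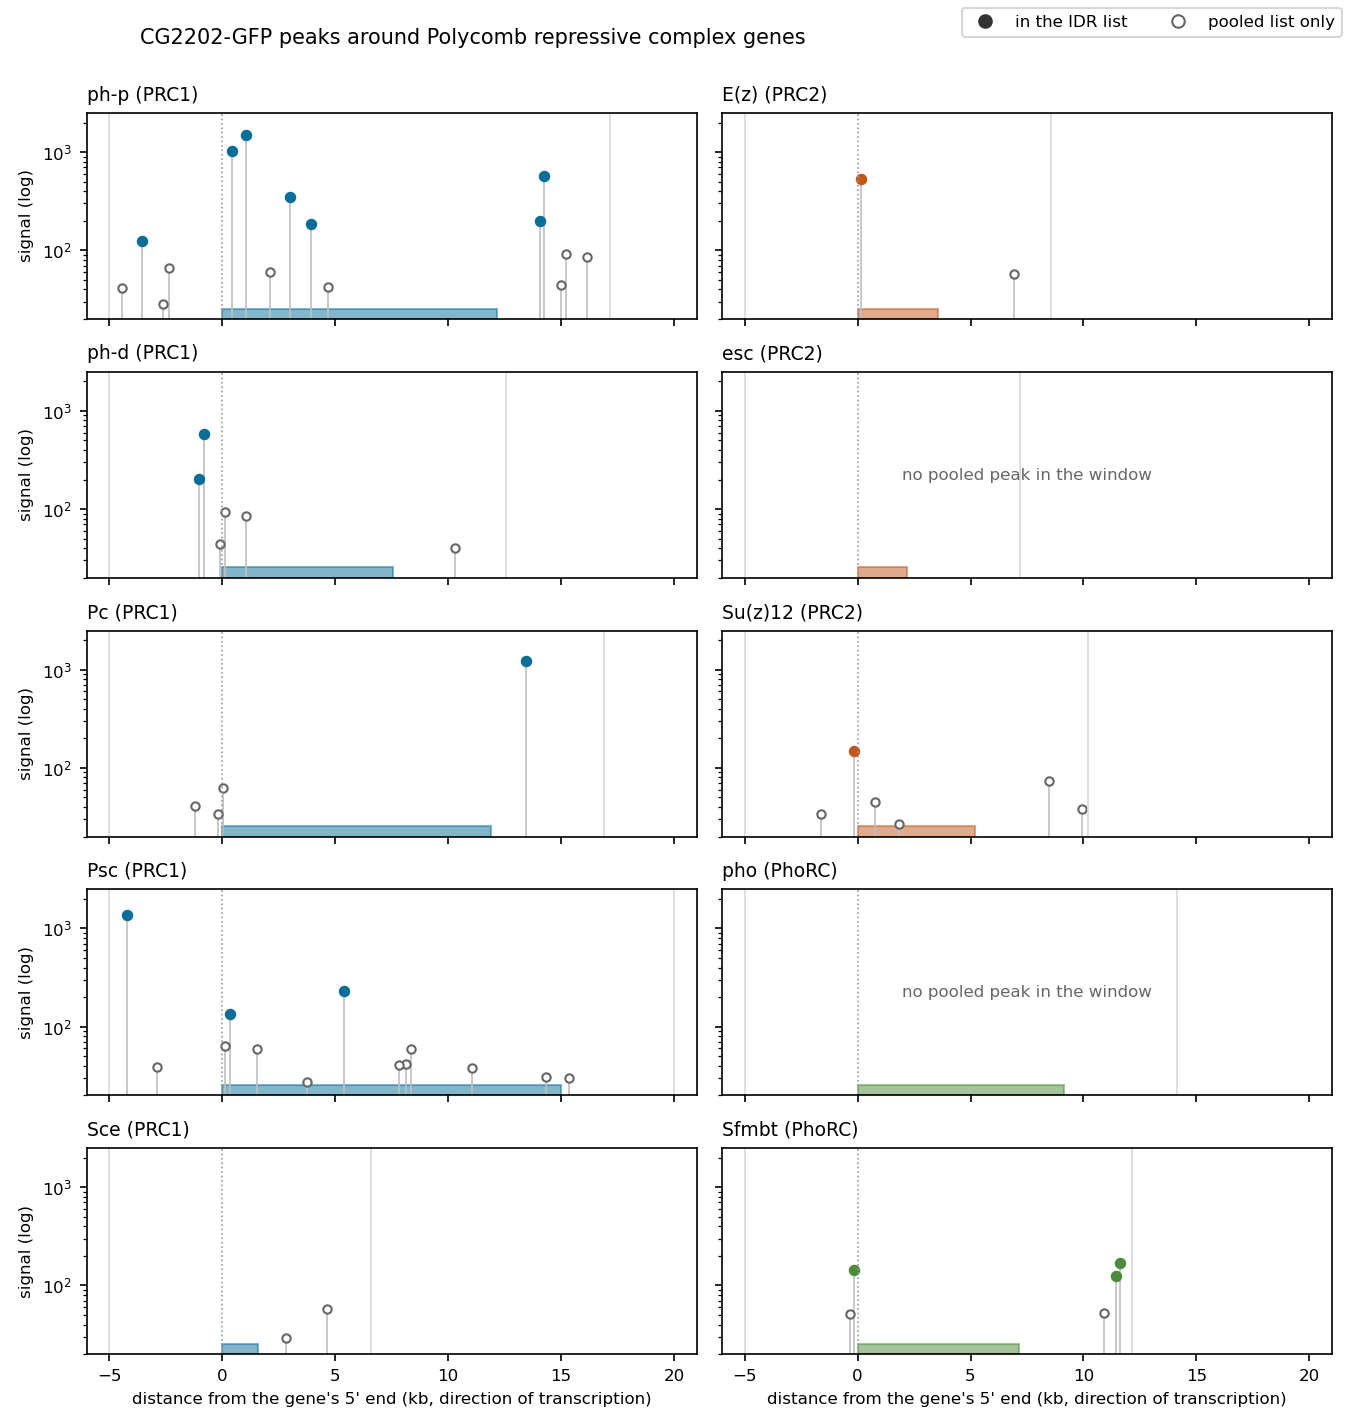
Signal of every pooled peak (log axis) against the distance of its summit from the gene's annotated 5′ end in kb, for the 10 genes, with transcription running to the right; the coloured bar is the gene body and the pale vertical lines end the 5 kb window. Filled points are in the IDR list, and they stand in 7 of the 10 windows, with 7 at ph-p and none at Sce, esc or pho.

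The 16 IDR peaks fell into 3 kinds. Own promoters held 6, promoters of neighbouring genes held 5, and 5 were distal, with no TSS of any gene within 500 bp. The nearest TSS belonged to one of the 10 genes for 10 of the 16. By annotation at the summit 8 were intronic, 5 intergenic and 3 in 5′ UTRs, and 0 were in coding exons or 3′ UTRs. At 6 of the 16, TSSs of both strands lay within 500 bp. Shares of these kinds over all IDR peaks are not given, so the counts describe only the 16 and are not a trait of these genes. PRC1 gene windows held 11 of the peaks, with a median signal of 349.7, PRC2 windows held 2 (531 and 148) and PhoRC windows held 3, with a median of 145. The median over all IDR peaks was 194.

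ph-p, a gene for a Polyhomeotic protein of PRC1, had the most and the strongest peaks of the 10. Its strongest summit, signal 1483 and rank 8 in the pooled list, had a signal of 699 and rank 9 in replicate 1 and a signal of 818 and rank 10 in replicate 2. The 2 replicates placed it 1 bp and 13 bp from the pooled summit. It lies in an intron of ph-p (FBgn0004861, X 2126210 to 2138371, minus strand), 476 bp upstream of the next ph-p TSS. Among the 2169 genes with an IDR summit at an own TSS, ranked by the highest such signal, ph-p was number 5. This call depends on the promoter window, since no IDR summit lay within 250 bp of a ph-p TSS, and with that window 4 of the 10 genes were bound at an own promoter. The share of all genes with that window is not given.

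A second ph-p promoter summit lay 610 bp away, 430 bp downstream of the 5′-most TSS and inside the 5′ UTR. Its signal was 1015 (rank 38), with rank 82 and signal 373 in replicate 1 and rank 27 and signal 665 in replicate 2. Farther into the gene, intronic summits lay 1272 bp and 2197 bp downstream of the nearest ph-p TSS. The first had a signal of 349.7, with rank 608 in replicate 1 and 755 in replicate 2. The other had a signal of 184, with rank 2658 in replicate 1 and 1615 in replicate 2. The 4 peaks therefore run from the start of the gene into its introns, and beyond the strongest summit the signal was lower at each next one.

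The last peak in the ph-p window belonged to a neighbour, at a summit 3548 bp upstream of ph-p and in the 5′ UTR of D2hgdh. It was the weakest of the 16, at 124 (rank 3432), with rank 3208 in replicate 1 and 5971 in replicate 2. In all, 7 IDR summits lay in the ph-p window, and 41 of 17896 genes, or 0.229%, had that many or more. This count includes the 2 summits upstream of ph-d, which lie in both windows.

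ph-d, the other Polyhomeotic gene, starts 2923 bp beyond the 3′ end of ph-p and had no IDR summit at its own TSSs. Its IDR peaks were a pair of summits within 1 called interval of 420 bp, 822 bp and 1030 bp upstream of its nearest TSS. The stronger had a signal of 576 (rank 193), with rank 540 and signal 180.3 in replicate 1 and rank 115 and signal 401 in replicate 2. The weaker had a signal of 201 (rank 1677), and the replicate summits within 100 bp of it ranked 2444 in replicate 1 and 1323 in replicate 2. At the ph-d TSSs themselves the pooled list had signals of 92.5 (rank 5399, 119 bp downstream) and 84.9 (rank 6112, 434 bp upstream of the later TSS). Replicate 1 placed a summit 25 bp downstream of the ph-d TSS at rank 2858, and replicate 2 placed one 67 bp downstream at rank 9163.

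Because ph-p and ph-d arose by duplication, the sequence under their peaks was compared between the copies. Reads from identical copies cannot be placed, but of the 354 36-mers in the strongest ph-p peak only 14 (3.95%) occurred more than once in the genome, and in the other 15 peaks 0 did. The second ph-p promoter peak aligned with the region upstream of ph-d over 168 bp at 85.1% identity, and the aligned part held its summit and the weaker ph-d summit. Around that weaker summit all 101 bp aligned with ph-p, at 86.1% identity. The matching ph-p stretch, X 2137958 to 2138061, held 0 pooled summits, but the second ph-p promoter summit, at 2137941, lay just outside it. The strongest ph-p peak aligned over 91 bp at 93.4% identity with sequence 316 to 410 bp upstream of ph-d, but this part did not reach its summit, and the matching stretch held 0 pooled summits. The stronger ph-d summit lay outside the part of its peak that aligned with ph-p.

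Psc, whose protein is a RING-finger subunit of PRC1 (FBgn0005624, 2R 12965997 to 12980994, minus strand), had 3 IDR peaks of very different strength. The strongest, signal 1378 and rank 13, is a promoter peak of a neighbour. It lies 150 bp upstream of lncRNA:CR44339, 4223 bp upstream of Psc and 11284 bp from the paralogous gene Su(z)2. It ranked 18 in replicate 1 (signal 577) and 13 in replicate 2 (signal 792). Within an intron of Psc, 5060 bp downstream of its nearest TSS, a distal peak had a signal of 233 (rank 1307), with ranks of 1128 and 1687 in replicates 1 and 2. The promoter peak of Psc itself, in its 5′ UTR 25 bp downstream of a TSS, was near the floor of the list at 133, with rank 2391 in replicate 1 and 4778 in replicate 2. Psc therefore counted as bound at its promoter by the IDR list but not by the top 3571 peaks of replicate 2.

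Pc, the chromodomain gene of PRC1 (FBgn0003042, 3L 21306138 to 21318020, minus strand), owes its IDR peak to the neighbours at its 3′ end. That peak, with a signal of 1237 and rank 21, lies 1561 bp beyond the Pc body, near the divergent starts of CG11309 and CG7632 and 81 bp downstream of the CG11309 TSS, in an intron of that gene. It ranked 52 in replicate 1 (signal 443) and 12 in replicate 2 (signal 797). At the Pc TSS the pooled list had a summit 48 bp downstream with a signal of 62.0 (rank 9384, q = 0.00687). The overlapping peak of replicate 1 ranked 17599 (q = 0.164), and that of replicate 2 ranked 6323 (q = 0.000554). The replicate 2 summit lay 95 bp upstream of the Pc TSS and not within 100 bp of the pooled summit. A q of 0.05 was thus passed near the Pc TSS in 1 replicate, at a different summit.

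Sce, the gene of the H2A ubiquitin ligase, had no IDR peak in its window, the shortest of the 10. The strongest pooled peak had a signal of 56.9 (rank 10561, q = 0.0153) and lay 110 bp upstream of the neighbour Hsdl2, 4617 bp downstream of the Sce TSS. The overlapping peak of replicate 1 ranked 9200, with its summit 192 bp downstream of the Hsdl2 TSS, and that of replicate 2 ranked 4974. No list had a summit within 500 bp of the Sce TSS.

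Among the PRC2 genes, E(z), which encodes the histone methyltransferase (FBgn0000629, 3L 10634575 to 10638130, minus strand), had 1 strong peak. Its summit lies in an intron, between the 2 TSSs of the gene and 109 bp upstream of the nearer, with a TSS of Cnep1r2 on the other strand within 500 bp. The signal was 531, rank 245. The peak ranked 1023 in replicate 1 (signal 130.5) and 116 in replicate 2 (signal 401). The summit of replicate 2 coincided with the pooled one and that of replicate 1 was 66 bp away. Among bound genes E(z) was number 192 by promoter signal.

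Su(z)12, a zinc-finger subunit of PRC2, had 1 IDR peak, in the gap between its own start and that of Pfdn6. The summit was 152 bp upstream of Su(z)12 and 57 bp upstream of Pfdn6, so the peak cannot be given to either gene. Its signal of 148 (rank 2664) was in the lower part of the IDR list, and it ranked 2125 in replicate 1 and 3379 in replicate 2. esc, the WD40-repeat subunit of PRC2, had no pooled peak in its window. Replicate 1 had none either, and replicate 2 had a single summit 67 bp downstream of the esc TSS, at rank 15537 and q = 0.134.

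The PhoRC genes were weak or empty. Sfmbt had an IDR summit 144 bp upstream of its TSS and near the divergent start of CG5439, with a signal of 145 (rank 2747), rank 2685 in replicate 1 and rank 3563 in replicate 2. Its other IDR peaks, of 171 and 126, lie 11220 and 11020 bp downstream of its TSS, between the divergent starts of DnaJ-H and Sirt1. The first ranked 2900 in replicate 1 and 1568 in replicate 2. The replicate summits within 100 bp of the second ranked 9988 and 2739. pho, on the small arm 4, had no pooled peak in its window, none in replicate 1, and in replicate 2 a summit 4537 bp upstream of its TSS at rank 25972 (q = 0.453). A lack of listed peaks says only that none was among the 30000 kept.

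**Figure D2:**
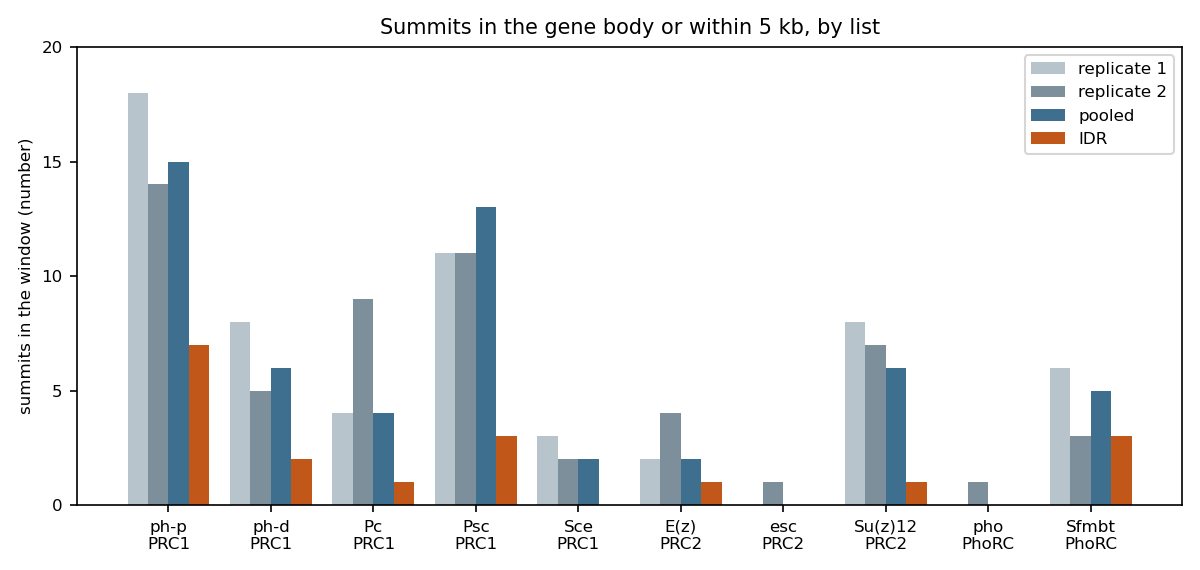
Number of summits in the gene body or within 5 kb for each gene, in the replicate 1, replicate 2, pooled and IDR lists. ph-p has 18, 14, 15 and 7, Psc 11, 11, 13 and 3, whereas esc and pho have a single summit each, in replicate 2.

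Weaker peaks filled in few further genes. With the pooled list limited to q below 0.05, 8 of the 10 genes had a summit in the window, Sce being the addition, where 68.6% of all genes and 77.5% of those in the same length range had one. Any pooled summit, with no limit on q, was present for the same number, 8, where 78.7% of all genes had one. The members' counts at these lower levels were near the background shares. With the top 3571 peaks of each replicate alone, own promoters were bound for 6 of the 10 in replicate 1, where the share of all genes was 10.9%, and for 4 in replicate 2, where it was 13.4%. ph-d was the gene added in replicate 1, and Psc was the one missing from replicate 2. ph-p, E(z), Su(z)12 and Sfmbt were bound in both.

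The replicates ordered the members' peaks much alike, though single strong and weak peaks ranked apart. E(z) ranked 1023 in replicate 1 and 116 in replicate 2, and the D2hgdh peak 3208 and 5971. All 16 IDR peaks overlapped a peak in both replicate lists, and 14 of them (87.5%) were within the top 3571 of both, against 64.7% of all IDR peaks. The exceptions were the Psc promoter peak and the D2hgdh peak, each ranked lower in replicate 2. This count depends on the matching by 1 bp of overlap. With summits within 100 bp it was 13, since the Sfmbt-window peak of 126 then ranked 9988 in replicate 1. With an overlap of 50% of both peaks it was 10. Spearman's rho between the replicate ranks was 0.867 over the 16 peaks, and 0.399 over the 3519 IDR peaks matched in both lists. It is a description, since peaks share libraries, 4 of the 16 share a called interval or a replicate peak with another, and the IDR list was made from these replicates. When replicate summits within 100 bp were used, rho was 0.838. Of the 16, 7 ranked higher in replicate 1 and 9 in replicate 2. The 16 were also stronger than IDR peaks in general, with a median rank of 1076 against 1785 in replicate 1 and 1162 against 1758 in replicate 2. Neither rho nor the share within both tops was compared with that of peaks of like signal.

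**Figure D3:**
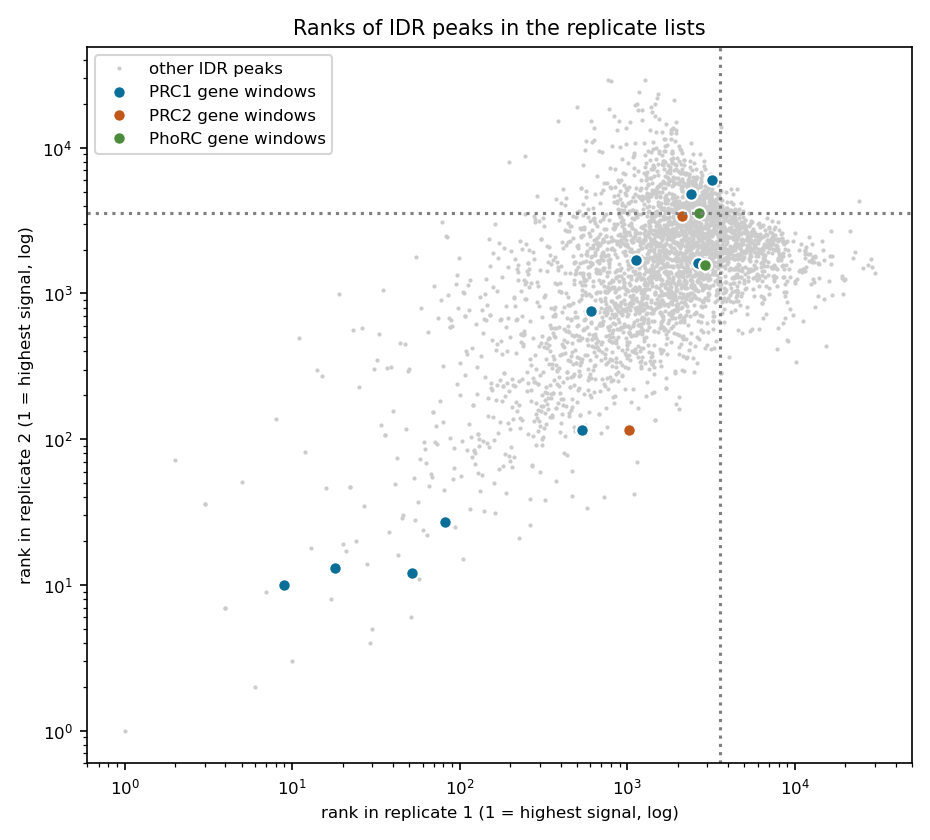
Rank of each IDR peak in replicate 1 and in replicate 2 (both axes log, 1 is the highest signal); grey points are other IDR peaks, coloured points the peaks in PRC1, PRC2 and PhoRC gene windows, and dotted lines mark rank 3571. Peaks of PRC1 windows reach ranks 9 and 10 at the lower left, and 14 of the 16 lie within both lines (2 pairs of peaks share a point).

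The members' peaks differed in base composition along with their signal. GC content within 50 bp of the summit had a median of 29.7% over the 16 (lowest 11.9, highest 47.5%), 32.7% over all IDR peaks and 42.6% over the 25659 pooled peaks that overlap no IDR peak. The most AT-rich were E(z), at 11.9%, the Sfmbt-window peak at Sirt1, at 17.8%, and the second ph-p promoter peak and the lncRNA:CR44339 peak, both at 19.8%. The most GC-rich were the 3 weak peaks at Psc (47.5%), D2hgdh (45.5%) and Su(z)12 (42.6%), with signals of 133, 124 and 148. Spearman's rho between signal and GC content was -0.427 over the 16 peaks and -0.179 over all 3571, again as a description over peaks of 1 list. The order was loose. The Sirt1 peak had a signal of only 126, and the strongest ph-p peak, of 1483, had 31.7% GC.

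Long runs of A and T stood out at E(z) and lncRNA:CR44339. The longest run within 50 bp of the summit was 33 bp at E(z), shown in capitals above, and 35 bp at lncRNA:CR44339. A run of 33 bp or more was present in 12 of 3571 IDR peaks (0.336%) and in 0.0429% of windows of the same length centred on the 23307 TSS positions. The 12 include these 2 peaks, and the limit of 33 bp is the E(z) run itself, so the shares are a description. At the other 14 peaks the run was no longer than the 20 bp of the Sirt1 peak. The median over the 16 was 10.5 bp, against 10 bp over all IDR peaks, 8 bp over pooled peaks outside the IDR list and 7 bp over TSS windows. The strongest ph-p summit had a run of 14 bp and the CG11309 summit one of 10 bp.

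**Figure D4:**
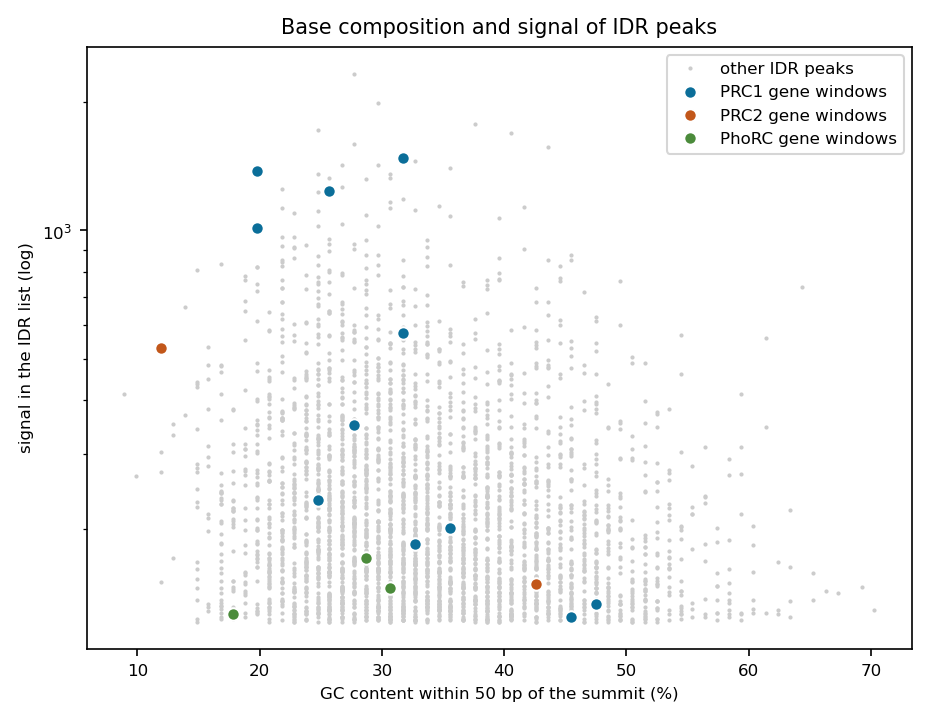
Signal in the IDR list (log axis) against GC content within 50 bp of the summit in percent; grey points are other IDR peaks and coloured points the peaks in PRC1, PRC2 and PhoRC gene windows. The 4 peaks above a signal of 1000 lie between 19.8 and 31.7% GC, and E(z) is at 11.9%.

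Words bound by known fly factors were searched on both strands. GCCAT, the core that Pho recognises in Polycomb response elements, was within 50 bp of the summit at 3 of the 16 peaks (18.8%), where all IDR peaks had 13.2%, pooled peaks outside the IDR list 18.8% and windows of the same length at TSSs 16.9%. The 3 were the intronic ph-p peak of signal 184, E(z) and Su(z)12. Within 150 bp it was at 4 of the 16 (25.0%), where all IDR peaks had 38.3%, pooled peaks outside the IDR list 45.9% and TSS windows 42.8%. None of the 4 peaks above a signal of 1000 held it within 150 bp. GAGAG, the GAGA factor word, was within 50 bp at 1 peak, the Psc promoter (6.25%, against 9.38% of all IDR peaks). TATCGATA, the DNA replication-related element, was present at 1 peak, the Sfmbt promoter, where 1.15% of IDR peaks and 3.78% of TSS windows had it. CGATA, a word bound by BEAF-32, which is also contained in that element, was present at 3 (18.8%, against 14.1% and 21.4%).

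The other words were rarer. GGTCACACT, the motif of M1BP, CAGGTA, the core of the Zelda site, and CACGTG, an E-box, were found within 50 bp at 0 of the 16, and in 0.616%, 1.93% and 0.728% of all IDR peaks. Within 150 bp they were found at 1, 2 and 0 of the 16, and in 2.66%, 6.66% and 3.22% of all IDR peaks. The matches at the promoters of Su(z)12 and Sfmbt are shown in capitals, since these are the members' promoter peaks with a GCCAT and a TATCGATA that lie outside UTRs. They are matches of letters and not measured binding by those factors.
Su(z)12, promoter peak, chr3L:19923564-19923664: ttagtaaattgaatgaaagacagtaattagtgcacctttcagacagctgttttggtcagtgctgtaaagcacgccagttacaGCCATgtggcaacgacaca
Sfmbt, promoter peak, chr2L:13176879-13176979: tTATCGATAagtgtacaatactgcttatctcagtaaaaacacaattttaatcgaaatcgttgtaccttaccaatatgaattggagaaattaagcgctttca

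The edges of the 5 kb window were crossed by few peaks. The farthest IDR summit inside was 4487 bp from the Sfmbt body, with a signal of 171, and for Psc it was the lncRNA:CR44339 peak, 4223 bp from the body. Just outside, a summit nearest to RhoGDI lay 5185 bp from the Su(z)12 body, with a signal of 158, and one nearest to CG13321 lay 6539 bp from the Psc body, with a signal of 673. For the genes without an IDR peak, the nearest one was 10606 bp away from esc, 24891 bp from Sce and 59135 bp from pho.

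Other genes of the Polycomb system were matched by symbol for 23 of 24 (calypso was not). This list too was drawn up with earlier results of these data known, so its counts are a description. An IDR summit lay in the window of 15 of the 23 (65.2%, against 36.6% of all genes) and at an own TSS of 7 (30.4%, against 12.1%), and a pooled summit with q below 0.05 lay in the window of 21 (91.3%, against 68.6%). Here the shares of all genes are not matched for gene length. The promoter signals were low, with a median of 136 over these 7, 148 over the 5 bound members and 199 over all 2169 bound genes. The strongest were Trl, the GAGA factor gene, at 179 (161 bp downstream of its TSS, ranks 2069 and 1927 in replicates 1 and 2), and psq, which encodes another GAGAG-binding protein, at 155 (ranks 1991 and 3456). jing followed at 149.9 (ranks 2791 and 2427), corto at 136 (ranks 2113 and 9257), cg at 124 (ranks 3502 and 4759, shared with mRpS16) and Scm, a gene for a PRC1-associated protein, at 122 (ranks 16395 and 2688). The other promoter-bound gene, Spps, also had a signal of 122 (ranks 4979 and 2977). The corto and Scm peaks ranked far apart in the replicates.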

How the data were processed

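Anti-GFP ChIP-seq of the CG2202-GFP line was deposited as peak lists on dm6. Per the deposited text files, a control alignment was used with that of 1 replicate for each replicate list and with both for the pooled list, and the IDR list was made from the other 3. Which aligner, caller and IDR threshold were used is not stated there or in the labels. Each deposited peak has the authors' signal value and a −log10 q-value. Depth is unknown, so no interval based on reads was computed.

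Genes and TSSs came from Ensembl release 115 (17896 genes and 23722 TSSs, without pseudogenes and transposable elements) and bases from RefSeq's Release 6 genome. Peaks were matched between lists by 1 bp of overlap, taking the highest signal. Local alignments scored 2 for a match, -3 for a mismatch, -5 to open and -2 to extend a gap. The members and lists were chosen with earlier results of these data known, and no set test was run. Named are all 10 genes, their IDR peaks or strongest pooled peak, their neighbours, and by rule up to 6 other Polycomb genes bound at an own promoter. Spps and the further Polycomb genes in the closing section were named after their values were seen. Peak assignment was tested on simulated data. The tools were Biopython 1.88, matplotlib 3.10.9, scipy 1.17.1, pandas 2.3.3 and numpy 2.4.6 under Python 3.11.15. Alternatives changed the peak list, the gene and promoter windows and the matching of peaks.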

Additional observations from a re-analysis of the deposited data

How the results depend on the processing

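Across 39 alternative values, 29 stayed within 1.5 times the reported ones and 10 did not. Counting summits in the gene body alone gave 3 bound genes in place of 7, and 7 peaks in place of 16. Giving each summit only to the gene with the nearest TSS gave 10 peaks. The 1000 strongest IDR peaks gave 2 genes bound at an own promoter (in place of 5), 7 peaks, 2 distal peaks (in place of 5) and a median of 1237 for each bound gene's strongest peak (in place of 576). Shares of all genes are not given for the gene-body and 1000-peak settings, so these counts of genes have no background beside them. All pooled peaks with q below 0.05 gave 29 peaks, 8 of them distal, and a promoter window of 250 bp gave 8 distal peaks. With the top peaks of either replicate alone the count of genes with a summit in the window was 7 both times, that of own promoters 4 to 6, that of peaks 14 to 16 and that of distal peaks 5. Counting ph-p and ph-d as 1 gene, chosen after seeing the data, gave 6 genes in place of 7. No paired analysis was possible because there is only 1 group. Depth is unknown, so how far it limits the weak peaks cannot be told.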

Other observations

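Some of the other Polycomb genes had strong peaks away from their own promoters; these were chosen after their values were seen. Trl had 5 IDR summits in its window, the strongest in an intron 1515 bp downstream of a TSS with a signal of 1086 (rank 32), ranked 54 in replicate 1 and 28 in replicate 2. Kdm2, a histone demethylase gene, had 4, the strongest in an intron with a signal of 733 (ranks 270 and 67). jing, which encodes a zinc-finger protein, had 11, with an intronic peak of 521 that ranked 85 in replicate 1 and 981 in replicate 2. phol, the paralogue of pho, had 3, the strongest (727, ranks 128 and 109) lying 98 bp upstream of CG3437. The peak of 1421 in the window of Caf1-55, a histone-binding subunit of PRC2, is at the Art3 promoter, 3950 bp from the Caf1-55 TSS. No IDR summit lay in the windows of Su(z)2, Asx, Pcl, Jarid2, l(3)73Ah, sxc, crm or mxc.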
